A study of Homo sapiens with 4 samples.

Results

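HOX genes encode homeodomain transcription factors that lie in 4 clusters, HOXA, HOXB, HOXC and HOXD, and the 39 protein-coding members of these clusters were followed here in LoVo cells with and without MET. They were taken by their place in the clusters, as every HOXA, HOXB, HOXC or HOXD gene that GENCODE version 29 lists as protein-coding. Earlier results of these data were known when they were chosen. All 39 were found among the 58825 gene rows of each library. The antisense and other noncoding RNAs of the clusters are not members and are described separately.

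In the embryo, HOX genes are switched on along the body axis in the order in which they sit in a cluster, those with low paralog numbers in anterior and those with high numbers in posterior structures. Adult cells keep much of this code, and the epithelium of the colon is known for posterior members such as HOXA13 and HOXB13. Genes that bear the same number in different clusters are paralogs, descended from a common ancestor, and bind DNA through a homeodomain encoded by a conserved stretch called the homeobox.

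LoVo is an established line from a colon adenocarcinoma, and 4 RNA libraries were sequenced. MET+ cells (2 biological replicates) carry the WT genotype and are described in the labels as a GFP control. MET-KO cells (2 biological replicates) carry a MET knock out made with CRISPR/Cas9, in which puromycin-selected colonies were picked by hand and chosen by western blot, and the sources used here do not give whether both MET-KO libraries come from 1 clone. Both kinds of cell grew in DMEM with fetal bovine serum, and since MET-KO cells passed through selection and cloning, loss of MET and differences between clones cannot be told apart. QuantSeq 3' libraries count tags at the 3' end of transcripts, so values are given as counts or as CPM, counts scaled to a common library total, which do not depend on transcript length.

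The HOXA cluster spans chr7:27092993-27200106, HOXB chr17:48528526-48729178, HOXC chr12:53938765-54056030 and HOXD chr2:176092891-176190907 on GRCh38. Over the 39 homeoboxes of 180 bases each, located in GENCODE transcripts by the conserved end of the homeodomain, genes of the same paralog number were identical at a median of 81.7% of bases (42 pairs, 69.4% to 90.6%). Pairs of different number had a median identity of 61.4% within a cluster (172 pairs) and 60% between clusters (527 pairs). The homeoboxes of HOXA13 (chr7:27198222-27198401, minus strand), HOXB13 (chr17:48726820-48726999, minus strand) and HOXD13 (chr2:176094524-176094703, plus strand) are shown 5′ to 3′ because these 3 paralogs, each within 1 exon, are the posterior group in which members moved in opposite directions. Capitals mark bases that differ from HOXA13.
HOXA13: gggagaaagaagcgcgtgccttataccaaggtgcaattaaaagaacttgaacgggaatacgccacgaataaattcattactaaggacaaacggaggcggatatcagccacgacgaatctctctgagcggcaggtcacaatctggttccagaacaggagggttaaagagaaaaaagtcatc
HOXB13: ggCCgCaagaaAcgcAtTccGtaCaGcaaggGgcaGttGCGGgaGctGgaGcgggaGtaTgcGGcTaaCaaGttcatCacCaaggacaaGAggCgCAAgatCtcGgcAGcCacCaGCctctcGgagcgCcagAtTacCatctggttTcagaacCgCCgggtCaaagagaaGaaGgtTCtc
HOXD13: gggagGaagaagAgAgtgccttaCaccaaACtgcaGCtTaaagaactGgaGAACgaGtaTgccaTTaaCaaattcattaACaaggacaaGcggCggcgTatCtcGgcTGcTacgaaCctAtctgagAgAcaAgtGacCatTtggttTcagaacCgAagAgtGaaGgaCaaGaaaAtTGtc
HOXB13 differed from HOXA13 at 55 bases (69.4% identity) and HOXD13 at 48 bases (73.3% identity).

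The targeted gene was lower in the cells labelled as its knockout. MET (chr7:116672390-116798386), the receptor of hepatocyte growth factor, had 2794 and 3272 counts in MET+ and 861 and 965 in MET-KO libraries. Its level fell from 336 ± 1.26 to 86.5 ± 3.12 CPM (SD, n = 2 each; log2 fold change −1.96, standard error 0.09, adjusted p = 1.49e-18, edgeR quasi-likelihood test with Benjamini-Hochberg adjustment). Depth was 8429142 to 10286552 counts per library, and the groups stood far apart over the whole transcriptome: 54.1% of the 13801 tested genes passed an adjusted p of 0.05 (edgeR quasi-likelihood test), 27.2% higher and 26.9% lower in MET-KO cells. Y-linked protein-coding genes summed to 0 counts in each MET+ library, against 6773 and 6756 for MET-KO. The summed level of 13 colon epithelium markers was 9695 and 9724 CPM in MET+ and 8307 and 7322 CPM in MET-KO cells, with 9 of 12 tested markers lower and 2 higher, CDX1 at 0 in all libraries, and CDH17 and GPA33 at 0 in both MET-KO libraries. EPCAM, which marks epithelium, stood at 437 ± 2.76 in MET+ against 203 ± 11.3 CPM in MET-KO (SD, n = 2 each), and so was present in both groups. Markers of fibroblasts (8 genes, 1.64 to 4.32 CPM in sum, COL1A2 and DCN at 0), blood cells (5 genes, 27.0 to 32.4 CPM, nearly all from HBA1, with PTPRC and CD3E at 0) and endothelium (4 genes, 0 to 0.922 CPM) were low in both groups. The part of these differences between the cells in the HOX results was not tested, and in bulk RNA fewer cells of a type and less RNA per cell cannot be told apart.

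LoVo cells expressed a HOXA and HOXB program with little HOXC and HOXD RNA. Summed over the 39 genes, the HOX level was 711 and 721 CPM in MET+ and 942 and 1012 CPM in MET-KO libraries. HOXA genes held 39.5% and 38.8% of HOX counts in MET+ and 47.5% and 47.9% in MET-KO libraries. HOXB genes held 53.0% and 55.2% in MET+ and 49.0% and 48.6% in MET-KO libraries. HOXC went from 5.09% and 4.28% to 2.62% and 2.76%, and HOXD from 2.38% and 1.72% to 0.862% and 0.827%, shares described here without a test. The members with the highest levels in both groups included HOXB7, HOXA9, HOXB6, HOXB9 and HOXA13.

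Of the 39 members, 33 had a count in some library and 24 had enough counts to be tested. HOXB1, HOXC5, HOXC11, HOXC12, HOXD9 and HOXD12 had 0 counts in all 4 libraries, which with a limit of 3 counts allows up to 0.292 to 0.356 CPM. For HOXC5 that limit may not hold, since other annotated genes on its strand cover 100% of its last 500 exonic bases. How tags shared between genes were counted is not given in the sources used here. HOXC10, HOXC13, HOXD10 and HOXD11 had at most 3 counts in any library. Because a gene could pass the filter through the group in which it was high, the 24 tested members do not stand for all 39. These limits cover counting error only.

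**Figure D1:**
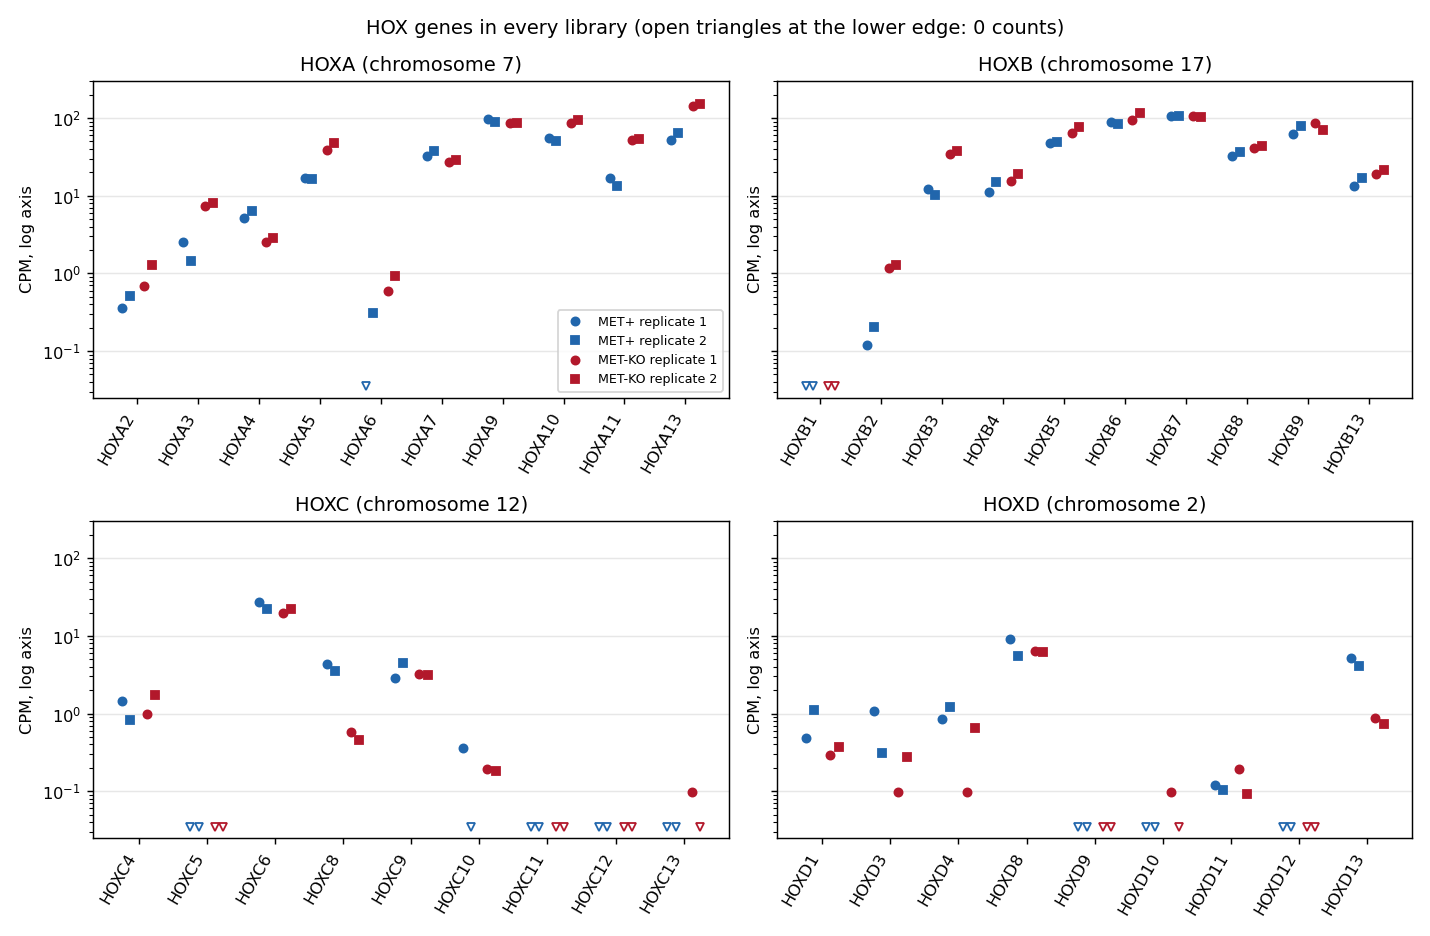
Level of HOX genes in each of the 4 libraries in CPM, by cluster and paralog number, with MET+ and MET-KO libraries in separate colours. HOXA and HOXB hold nearly all of the signal, and HOXA13 stands at 52.5 and 65.1 CPM in MET+ and 143 and 154 CPM in MET-KO libraries.

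Among the 24 tested members, 11 rose and 4 fell with MET-KO by an adjusted p of 0.05 (edgeR quasi-likelihood test), that is 62.5%, beside a background of 54.1% of all tested genes. The MET-KO pair of libraries was entirely above the MET+ pair for 13 members and below it for 6 (38.5% and 37.1% of all tested genes), and 5 overlapped. Read against that background the share called sets the HOX genes little apart, and the median log2 fold change was 0.29 in HOX genes and 0.01 over all tested genes. By cluster, with no test of the difference, calls were 6 higher and 2 lower of 9 tested HOXA genes, 5 higher and 0 lower of 9 HOXB genes, 0 higher and 1 lower of 4 HOXC genes, and 0 higher and 1 lower of 2 HOXD genes. With a fold change of 1 or more in log2 size also required, 7 members were higher and 3 lower, a total of 10 of 24, against 24.3% of all tested genes.

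The members of paralog numbers 2 and 3, which pattern the hindbrain and neck, were higher in MET-KO cells where counts allowed a test. HOXA3, needed for thymus and parathyroid, had 21 and 14 counts in MET+ and 76 and 89 in MET-KO libraries, a rise from 1.98 ± 0.777 to 7.81 ± 0.524 CPM (SD, n = 2 each). The test gave HOXA3 a log2 fold change of 1.996 with a standard error of 0.34 (adjusted p = 5.79e-06, edgeR). It sat at a very low level in MET+ cells, and the groups did not overlap, as for 75.6% of all tested genes.

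HOXB2 had 1 and 2 counts in MET+ and 12 and 14 in MET-KO libraries (log2 fold change 2.80, standard error 0.78, adjusted p = 0.00297, edgeR). The pooled counts of HOXB2, a segment gene of the hindbrain, gave a ratio of 7.41 (95% interval 2.27 to 38.3), which shows how few tags support its size. Its call was lost under DESeq2's Wald test (adjusted p = 0.0544) and when either MET-KO library was left out (adjusted p = 0.0528 and 0.0734, edgeR). HOXB3, its neighbour, rested on many more tags, 102 and 101 in MET+ and 354 and 405 in MET-KO libraries, and rose from 11.3 ± 1.38 to 35.9 ± 1.82 CPM (SD, n = 2 each; log2 fold change 1.67, standard error 0.16, adjusted p = 5.22e-11, edgeR). Altogether 3 of 3 tested members of numbers 2 and 3 were higher, beside 27.2% of all tested genes. Of these members HOXB2 passed the filter only through the MET-KO libraries. HOXD3, of number 3 and not tested, had 9 and 3 counts in MET+ and 1 and 3 in MET-KO libraries. Its pooled count was 3.51 times as high in MET+ cells (95% interval 1.06 to 14.9, counting error only). That ratio rests mostly on the 9 counts of MET+ replicate 1, since replicate 2 had 3 counts in each group. HOXA2, a low gene at 3 and 5 counts in MET+ and 7 and 14 in MET-KO libraries, was not tested.

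The central members, numbers 4 to 8, moved in both directions, with 3 higher and 3 lower of 12 tested and a median log2 fold change of 0.12. Their called share was 50%, near the 54.1% of all tested genes. HOXA5, which guides lung development, had 141 and 160 counts in MET+ and 391 and 520 in MET-KO libraries. It rose from 16.7 ± 0.435 to 43.0 ± 6.73 CPM (SD, n = 2 each; log2 fold change 1.37, standard error 0.14, adjusted p = 7.31e-10, edgeR). HOXB5, its paralog, had 399 and 483 counts in MET+ and 664 and 841 in MET-KO libraries, and rose by less, from 48.8 ± 0.960 to 71.1 ± 8.70 CPM (SD, n = 2 each; log2 fold change 0.54, standard error 0.11, adjusted p = 0.000108, edgeR). HOXB6 had 734 and 818 counts in MET+ and 953 and 1281 in MET-KO libraries (log2 fold change 0.29, standard error 0.11, adjusted p = 0.0203, edgeR). That call did not survive when MET-KO replicate 2, the highest library, was left out (log2 fold change 0.12, adjusted p = 0.461, edgeR), or MET+ replicate 2 (adjusted p = 0.133, edgeR), or under DESeq2's Wald test (adjusted p = 0.0808). HOXB6 overlaps HOXB-AS3, a gene on the opposite strand that was higher too (0.68), over 33.2% of its last 500 exonic bases, and the part of that RNA was not tested.

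In the HOXA cluster 2 central members were lower. HOXA4 had 43 and 63 counts in MET+ and 26 and 31 in MET-KO libraries, and fell from 5.82 ± 0.897 to 2.70 ± 0.215 CPM (SD, n = 2 each; log2 fold change −1.11, standard error 0.33, adjusted p = 0.00445, edgeR). HOXA7 had 270 and 364 counts in MET+ and 278 and 310 in MET-KO libraries, or 34.9 ± 3.34 and 27.9 ± 0.904 CPM (SD, n = 2 each). The difference for HOXA7 was small (log2 fold change −0.33, standard error 0.13, adjusted p = 0.0349, edgeR) and passed the threshold in 3 of 11 alternative settings. The last 500 exonic bases of both genes overlap noncoding genes on the opposite strand, 50.8% for HOXA4 (HOXA-AS2) and 100% for HOXA7 (HOXA-AS3). The strand setting of the counting is not given in the sources used here, so the part of antisense RNA in these values was not tested.

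HOXC8, a gene of the thoracic level, showed the largest fall among the tested members. It had 36 and 34 counts in MET+ and 6 and 5 in MET-KO libraries, a level of 3.91 ± 0.608 against 0.523 ± 0.0903 CPM (SD, n = 2 each). HOXC8 fell (log2 fold change −2.87, standard error 0.51, adjusted p = 1.19e-05, edgeR), and pooled counts were 7.44 times as high in MET+ cells (95% interval 3.92 to 15.6). It passed the filter only through the MET+ libraries, where it was high. The paralogs HOXB8 (272 and 358 against 422 and 469 counts) and HOXD8 (76 and 54 against 66 and 68 counts) did not pass (log2 fold changes 0.28 and −0.19, adjusted p = 0.0532 and 0.565, edgeR). The group of number 8 thus held 1 lower gene and 2 that did not pass.

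The remaining central genes did not pass the test. HOXB4, a gene known from blood stem cells, had 92 and 148 counts in MET+ and 160 and 207 in MET-KO libraries (log2 fold change 0.39, standard error 0.19, adjusted p = 0.073, edgeR), and passed in 4 of 11 alternative settings. HOXB7 was among the most abundant members, with 893 and 1047 counts in MET+ and 1087 and 1128 in MET-KO libraries, or 107.5 ± 0.314 and 105.0 ± 1.93 CPM (SD, n = 2 each; log2 fold change −0.03, standard error 0.10, adjusted p = 0.794, edgeR). HOXC4 (12 and 8 against 10 and 19 counts) and HOXC6 (225 and 215 against 200 and 244 counts) overlapped between groups. Too few tags for a test were left for HOXA6, at 0 and 3 counts in MET+ and 6 and 10 in MET-KO libraries, and for HOXD4, at 7 and 12 against 1 and 7.

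In the posterior group, numbers 9 to 13, which pattern the trunk end, limbs, genital tract and hindgut, 4 of 8 tested genes were higher and 1 was lower, with a median log2 fold change of 0.28. That is a called share of 62.5%, beside 54.1% of all tested genes. HOXA10 and HOXA11, genes of the uterus and limb, both rose. HOXA10 had 457 and 495 counts in MET+ and 891 and 1040 in MET-KO libraries, 52.9 ± 3.12 against 91.4 ± 5.92 CPM (SD, n = 2 each; log2 fold change 0.79, standard error 0.11, adjusted p = 1.07e-07, edgeR). HOXA11 had 142 and 129 counts in MET+ and 537 and 584 in MET-KO libraries, 15.2 ± 2.77 against 53.1 ± 0.784 CPM (SD, n = 2 each; log2 fold change 1.82, standard error 0.14, adjusted p = 4.07e-13, edgeR). Number 9 stood in contrast: HOXA9 (812 and 860 against 878 and 951 counts), HOXB9 (521 and 765 against 871 and 766 counts) and HOXC9 (24 and 44 against 33 and 34 counts) did not pass, with log2 fold changes of −0.10, 0.14 and −0.23.

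The paralogs of number 13 separated by cluster. HOXA13, which forms hindgut and digits, had 435 and 635 counts in MET+ and 1457 and 1672 in MET-KO libraries, 58.8 ± 8.90 against 148.1 ± 7.81 CPM (SD, n = 2 each). It rose (log2 fold change 1.33, standard error 0.11, adjusted p = 1.13e-12, edgeR) and had the highest level of all members in MET-KO cells. HOXB13, a marker of distal colon and prostate, had 110 and 163 counts in MET+ and 192 and 236 in MET-KO libraries (log2 fold change 0.43, standard error 0.17, adjusted p = 0.0344, edgeR), a call that did not hold without MET+ replicate 1 (0.28, adjusted p = 0.220) or MET-KO replicate 2 (0.32, adjusted p = 0.233), or under DESeq2's Wald test (adjusted p = 0.138). HOXD13, which acts with HOXA13 in digits and hindgut, had 43 and 40 counts in MET+ and 9 and 8 in MET-KO libraries and fell from 4.64 ± 0.770 to 0.808 ± 0.103 CPM (SD, n = 2 each; log2 fold change −2.50, standard error 0.45, adjusted p = 1.71e-05, edgeR). Pooled HOXD13 counts were 5.71 times as high in MET+ cells (95% interval 3.36 to 10.3). HOXD13 passed the filter only through the MET+ libraries, where it was high. HOXA13 and HOXD13, which differ at 48 bases of the homeoboxes shown above, thus moved apart. No library of one group overlapped the other for either gene, as for 75.6% of all tested genes.

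The remaining HOXD genes were scarce. HOXD1, not tested, had 4 and 11 counts in MET+ and 3 and 4 in MET-KO libraries. The 3' ends of HOXD1 and HOXD3 are almost wholly covered by other annotated genes (100% and 99% of the last 500 exonic bases). For HOXD4 another annotated gene on its strand covers 62.2% of these bases.

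**Figure D2:**
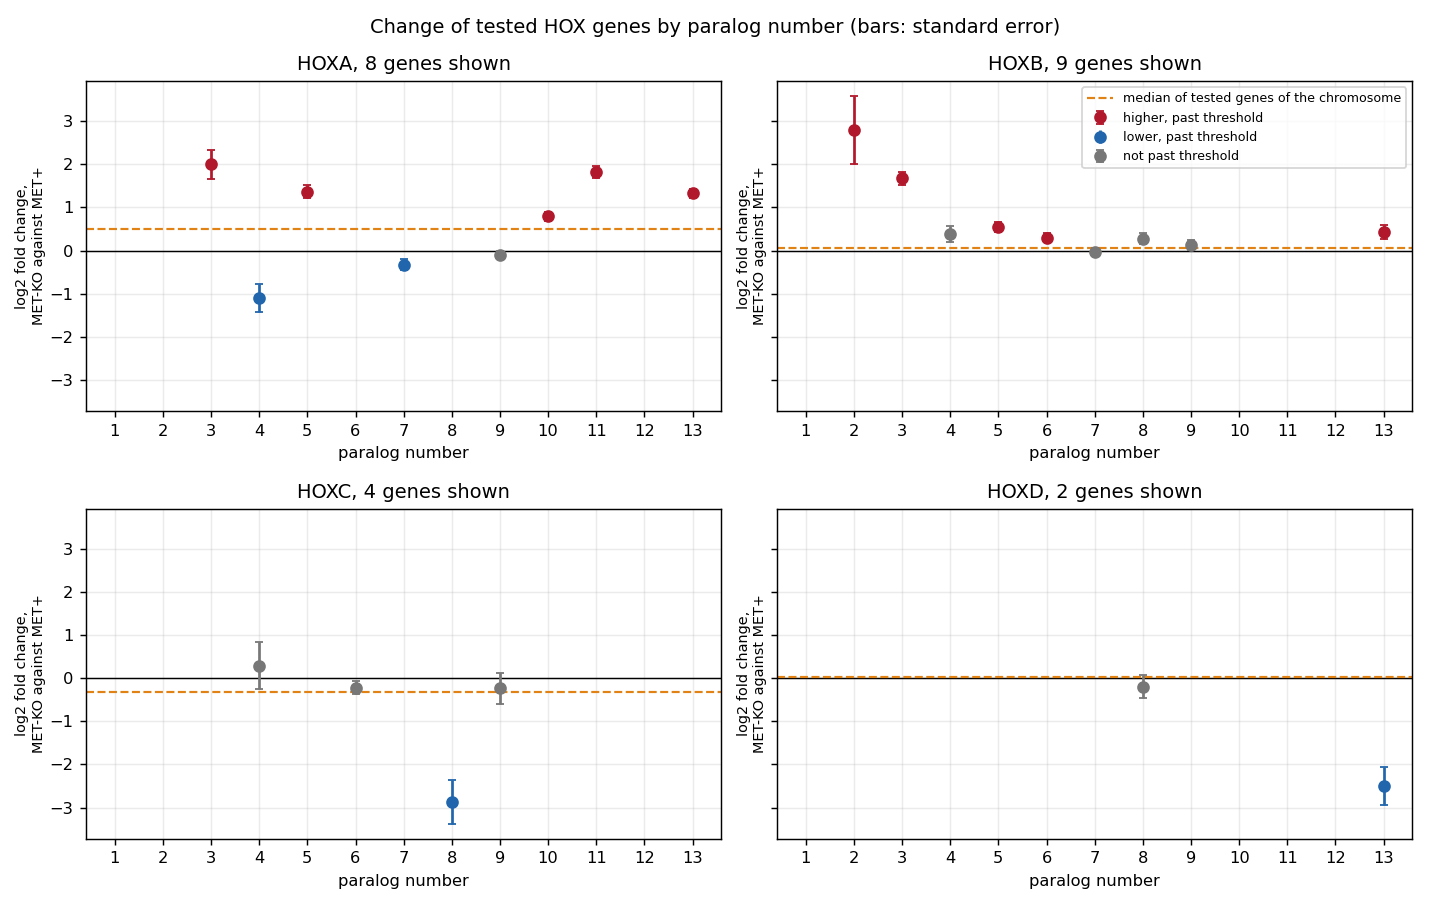
Log2 fold change of MET-KO against MET+ for tested HOX genes named in the text, by cluster and paralog number, with bars for the standard error, colour for the call and a dashed line at the chromosome's median. HOXA3, HOXB2 and HOXB3 stand at 1.67 to 2.80, and HOXC8 and HOXD13 lowest at −2.87 and −2.50.

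The chromosomes that carry the clusters were not level between the groups, which bears on how the cluster medians read. On chromosome 7 the 673 tested genes had a median log2 fold change of 0.50, with 368 called higher and 76 lower, beside 1.33 for the 9 tested HOXA genes. On chromosome 17 the median was 0.05 (875 genes) beside 0.39 for HOXB, and on chromosome 12 it was −0.32 (762 genes) beside −0.23 for HOXC. On chromosome 2 the median was 0.03 (926 genes), and the 2 tested HOXD genes lay below it. Less the median of its chromosome, HOXA stood at 0.83, HOXB at 0.34 and HOXC at 0.09, so that HOXC changed sign. Of the HOXA genes 6 of 9 lay above their chromosome's median, and of the HOXB genes 8 of 9. The part of these chromosome-wide differences in the HOX values was not tested.

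The coding genes beside the clusters were described in the same way. Of the 5 nearest tested coding genes on each side of each cluster, 40 in all, 16 rose and 11 fell (median 0.21), so that 67.5% were called beside 54.1% of all tested genes. Beside HOXA 7 of 10 were higher and 1 was lower (median 1.08), on a chromosome where 66.0% of tested genes were called. NFE2L3, a transcription factor gene 905.9 kb from the anterior end of the cluster, rose from 17.7 ± 0.0772 to 117.7 ± 0.187 CPM (SD, n = 2 each; log2 fold change 2.73, standard error 0.12, adjusted p = 5.36e-20, edgeR). CPVL, a carboxypeptidase gene 1795 kb past HOXA13, had a log2 fold change of −5.01 (adjusted p = 1.49e-10, edgeR). JAZF1, beyond HOXA13 as well, was higher (2.28, adjusted p = 4.23e-06, edgeR). SKAP2, the nearest tested neighbour at the anterior end, did not pass (0.17, adjusted p = 0.275, edgeR). Nor did EVX1, a homeobox gene and the nearest tested neighbour outside the cluster beyond HOXA13 (0.73, adjusted p = 0.0626, edgeR). Beside HOXB 6 of 10 were higher and 3 lower. Among them COPZ2, a coatomer gene, had no count in MET+ libraries, against 48 and 46 for MET-KO, at least 13.3-fold higher against 3 counts per library. COPZ2 passed the filter only through the MET-KO libraries, and CPVL only through the MET+ libraries. Beside HOXC 3 were higher and 4 lower, the latter led by TARBP2 (−1.22, adjusted p = 1.39e-08, edgeR) and ATF7 (−1.17, adjusted p = 7.71e-05, edgeR), and beside HOXD 0 were higher and 3 lower.

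Of the 54 noncoding genes annotated inside the clusters 8 were tested, with 3 higher, all in HOXA or HOXB, and 1 lower, in HOXD. The called share was 50%, near the 54.1% of all tested genes. Under DESeq2's Wald test 2 of these noncoding genes were called higher. HOTAIRM1, a noncoding RNA from the anterior end of the HOXA cluster, had 8 and 9 counts in MET+ and 49 and 62 in MET-KO libraries (log2 fold change 2.46, standard error 0.42, adjusted p = 6.78e-06, edgeR). It passed the filter only through the MET-KO libraries, where it was high. HOXA11-AS had 71 and 75 counts against 264 and 285 (1.68, standard error 0.18, adjusted p = 7.57e-10, edgeR), close to the 1.82 of HOXA11. HOXB-AS3 had 75 and 61 counts against 122 and 135 (0.68, standard error 0.22, adjusted p = 0.0095, edgeR). HOXD-AS2 was lower, with 26 and 53 counts in MET+ and 20 and 16 in MET-KO libraries (−1.33, standard error 0.40, adjusted p = 0.00544, edgeR), and lost its call without MET+ replicate 2. HOTTIP, which runs out past HOXA13 and was chosen after its values were seen, had 26 and 33 counts against 192 and 212, a ratio of 5.86 (95% interval 4.45 to 7.83).

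The sharpest change inside a cluster belonged to a pair of coding genes between HOXB9 and HOXB13 that are not HOX genes. PRAC1 (chr17:48721719-48722522), a small nuclear protein gene of prostate, rectum and distal colon, had 1 and 1 counts in MET+ and 153 and 162 in MET-KO libraries. PRAC1 rose (log2 fold change 6.92, standard error 0.46, adjusted p = 1.02e-14, edgeR), with a pooled ratio of 135 (95% interval 37.0 to 1117). PRAC2 (chr17:48723168-48724758) had 9 and 1 counts in MET+ and 93 and 97 in MET-KO libraries (log2 fold change 3.98, standard error 0.45, adjusted p = 3.38e-09, edgeR). PRAC1 and PRAC2 passed the filter only through the MET-KO libraries, where they were high. HOXB13, on the minus strand, ends at base 48724763 beside PRAC2, and its log2 fold change was 0.43.

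**Figure D3:**
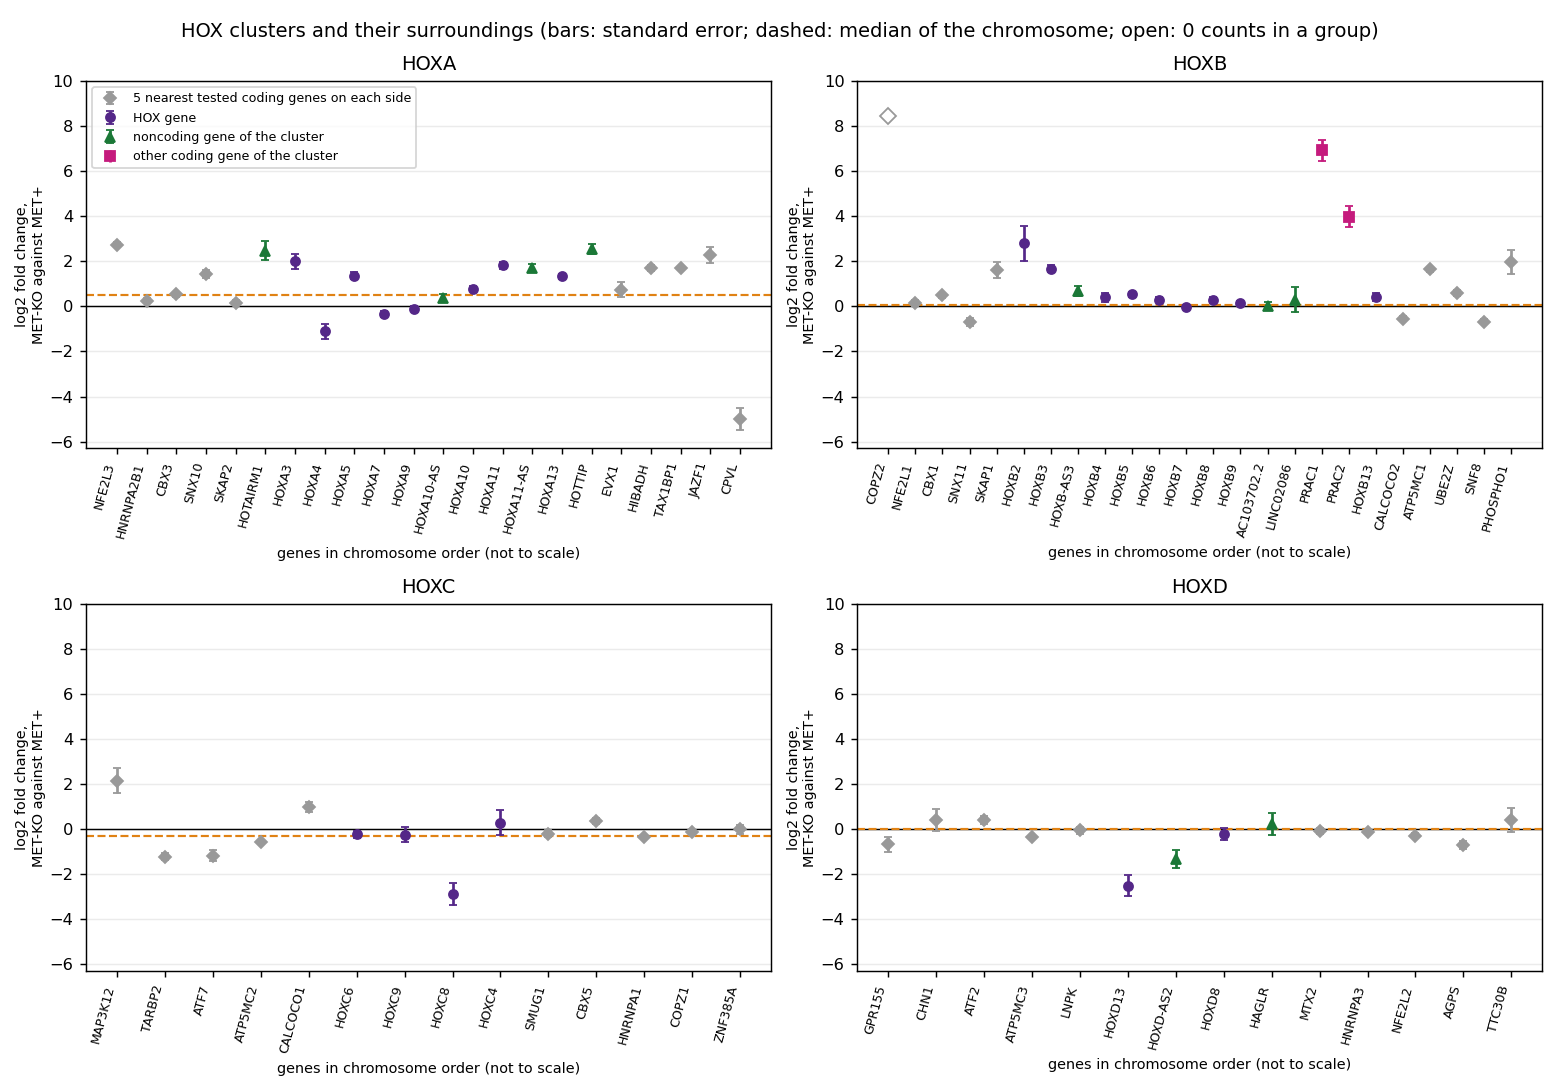
Log2 fold change of MET-KO against MET+ for tested genes in and beside each HOX cluster in chromosome order, with bars for the standard error, a dashed line at the chromosome's median and open symbols where a group had 0 counts. PRAC1 and PRAC2 stand at 6.92 and 3.98 within HOXB, far above HOXB9 and HOXB13.

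The promoters of HOXA13 and HOXD13 are shown 5′ to 3′, from 250 bases before to 50 after the RefSeq start, because these paralogs moved in opposite directions. The HOXD13 window lies wholly upstream of the GENCODE start of that gene, chr2:176092891. They are RefSeq sequences of GRCh38.p14, HOXA13 at chr7:27200042-27200341 (minus strand) and HOXD13 at chr2:176092471-176092770 (plus strand), and capitals mark CpG, the pair of bases that DNA methylation uses.
HOXA13 promoter: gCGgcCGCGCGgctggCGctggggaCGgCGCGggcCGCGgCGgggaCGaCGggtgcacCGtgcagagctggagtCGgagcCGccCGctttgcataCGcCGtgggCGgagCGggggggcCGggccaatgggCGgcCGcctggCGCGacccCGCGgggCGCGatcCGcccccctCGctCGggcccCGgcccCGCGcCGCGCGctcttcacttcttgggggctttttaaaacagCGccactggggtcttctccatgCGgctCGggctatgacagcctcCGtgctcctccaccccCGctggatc
HOXD13 promoter: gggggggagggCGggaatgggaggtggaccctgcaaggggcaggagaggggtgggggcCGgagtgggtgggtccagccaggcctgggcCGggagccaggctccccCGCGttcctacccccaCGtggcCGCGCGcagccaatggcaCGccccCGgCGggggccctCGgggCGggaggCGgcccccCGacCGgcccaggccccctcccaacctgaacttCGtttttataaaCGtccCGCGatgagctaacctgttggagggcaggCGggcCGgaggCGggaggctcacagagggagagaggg
HOXA13 had 44 CpG in 300 bases and HOXD13 had 24, beside a median of 14 over all promoters and 22 over the 27 promoters found for 20 of the HOX genes. Searched on both strands, and with different motifs counted separately so that matches may overlap, the TEAD motif GGAATG was in 8 of these 27 promoters, that of HOXD13 among them, and in 14.03% of all 35116 promoters. The PBX-HOX motif TGATNNAT was in 3 of 27 (HOXA2, HOXB1 and HOXD11) and in 7.40% of all, and the AP-1 motif TGANTCA in 0 and in 7.71% of all. HOXA3 has 7 of the 27 promoters, and HOXC4 and HOXC5, the only HOXC genes among them, share a window that was counted for each. The only HOXB gene among them is HOXB1, which had 0 counts in all libraries, so these values describe mainly HOXA and HOXD. These matches describe letters in the window and nothing of binding.

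HOX proteins bind DNA with TALE partners. Of 9 PBX, MEIS and PKNOX genes 7 were tested, with 3 higher and 1 lower, a called share of 57.1% that is near the 54.1% of all tested genes. PBX4 had 22 and 37 counts in MET+ and 89 and 128 in MET-KO libraries (log2 fold change 1.65, standard error 0.28, adjusted p = 6.91e-06, edgeR), and MEIS2 (0.94, adjusted p = 0.001, edgeR) and MEIS3 (0.36, adjusted p = 0.0314, edgeR) were also higher. PKNOX1 had 223 and 310 counts in MET+ and 169 and 188 in MET-KO libraries and was lower (−0.80, standard error 0.15, adjusted p = 3.57e-05, edgeR).

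CDX2, the intestinal homeobox gene that acts upstream of many HOX genes in the gut, had 525 and 648 counts in MET+ and 1477 and 1338 in MET-KO libraries. It rose from 64.9 ± 2.17 to 133.8 ± 15.3 CPM (SD, n = 2 each; log2 fold change 1.04, standard error 0.10, adjusted p = 1.93e-10, edgeR). CDX1 had 0 counts in all libraries, and PDX1, of the foregut, did not pass (0.06, adjusted p = 0.916, edgeR). Of 9 other genes of gut regional identity 7 were tested, and 5 were higher and 1 lower. That is 85.7% called, beside 54.1% of all tested genes, with PRAC1 and PRAC2 leading the higher ones. PRAC1 and PRAC2 passed the filter only through the MET-KO libraries. The list was chosen with earlier results of these data known, so this share is a description only. The lower one was SOX2, a foregut factor, with 178 and 187 counts in MET+ and 16 and 16 in MET-KO libraries (−3.73, standard error 0.26, adjusted p = 3.13e-14, edgeR).

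Retinoic acid is the classical inducer of anterior HOX genes. Of 18 genes of its synthesis, breakdown, transport and receptors 12 were tested, with 8 higher and 2 lower (median 0.81). The called share was 83.3%, beside 54.1% of all tested genes. This list too was chosen with earlier results of these data known, so the share is a description only. Among the 8 higher genes were CYP26B1, which breaks down retinoic acid, and DHRS3, which turns retinal back into retinol (log2 fold changes 0.74 and 0.89, adjusted p = 0.00686 and 0.000124, edgeR). STRA6, the retinol uptake receptor, had no count in MET+ libraries, against 336 and 398 for MET-KO, at least 103.8-fold higher against 3 counts per library. RDH10, which makes retinal, had 220 and 254 counts against 4566 and 5062 (log2 fold change 4.12, standard error 0.11, adjusted p = 4.55e-26, edgeR), and ALDH1A3, which makes retinoic acid, had 1383 and 1681 against 19447 and 19840 (3.46, standard error 0.10, adjusted p = 1.07e-24, edgeR). ALDH1A1, another enzyme of this step, went the other way, with 313 and 326 counts in MET+ and 0 in both MET-KO libraries, at least 125-fold lower. RXRA was the other lower gene (−1.05, adjusted p = 5.27e-09, edgeR). STRA6 and ALDH1A1 each passed the filter only through the group in which the gene was high. Whether the changes in this list bear on the HOX genes was not tested.

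Chromatin regulators are known to hold HOX genes on or off. Of 29 Trithorax, Polycomb and related genes, all tested, 6 were higher and 10 lower (median −0.13), so that 55.2% were called beside 54.1% of all tested genes, a share near the background. Among the falls were the Polycomb genes PHC2 (−1.11, adjusted p = 1.78e-08, edgeR) and CBX2 (−0.89, adjusted p = 2.05e-05, edgeR). The largest rises were in EZH1 (0.92), PSIP1 (0.87) and MLLT3 (0.64), with adjusted p = 0.000683, 6.81e-09 and 0.00222 in that order (edgeR).

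**Figure D4:**
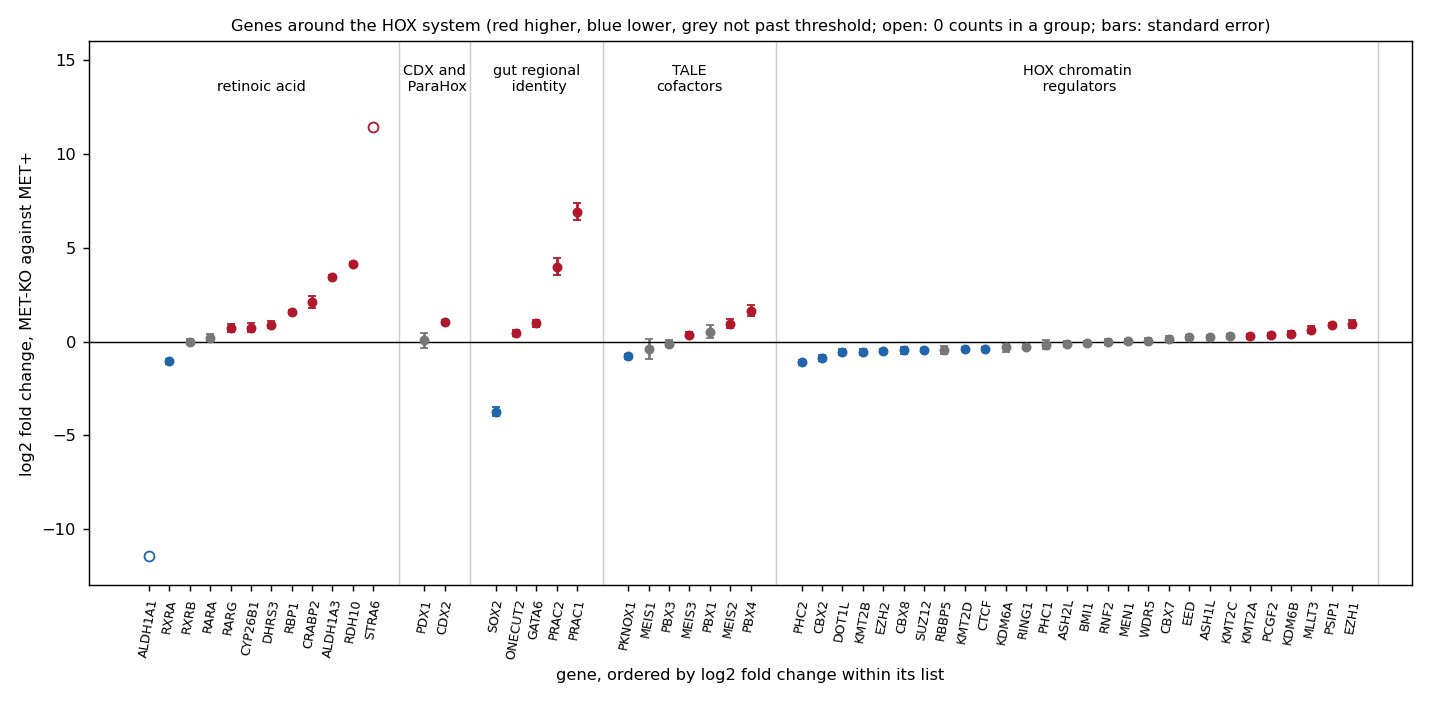
Log2 fold change of MET-KO against MET+ for tested genes of the TALE, CDX and ParaHox, gut regional, retinoic acid and chromatin regulator lists, with bars for the standard error and open symbols where a group had 0 counts and the plotted value depends on the fit's prior count. The retinoic acid and gut lists spread widest, and the chromatin regulators lie between −1.11 and 0.92.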

How the data were processed

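RNA from 2 MET+ and 2 MET-KO LoVo libraries, called biological replicates in the labels (QuantSeq 3' FWD), was deposited by the authors as raw counts per Ensembl gene, whole numbers without normalization. The submitters' processing notes name bcl2fastq, cutadapt 1.16, STAR 2.5.4a, featureCounts 1.6.2, DESeq2 1.18.1 and GRCh38; the strand setting is not given in the sources used here. Spike-in rows (99) were all at 0 and were left out. In GENCODE version 29, 58552 of 58825 IDs were found.

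Genes were tested in R 4.3.3 with edgeR 4.0.16 (filterByExpr by group, TMM scaling, quasi-likelihood test, Benjamini-Hochberg adjustment over 13801 genes, threshold 0.05), and a standard error was taken from the fold change and its F value. CPM are TMM-scaled, with a limit of 3 counts for a gene at 0. Pooled ratios have exact 95% intervals, which cover counting error only. With 2 libraries against 2, an exact permutation test cannot go below 0.333. Alternatives were DESeq2 size factors, library totals alone, the Wald test of DESeq2 1.42.0, every gene with a count, a minimum of 10 counts per library, a replicate block, each replicate left out, thinning, a log2 fold change of 1 or more in size, members without overlap at the 3' end, and medians less that of the chromosome. Members with at least 10 counts were named, and of other lists the 3 called genes with the largest change in each direction. The members and lists were chosen with earlier results of these data known. The tests were tested on simulated data. Promoters came from RefSeq, and figures were drawn with matplotlib 3.10.9. Results for some genes of these lists are not reported here.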

Additional observations from a re-analysis of the deposited data

How the results depend on the processing

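Of 270 gene values over 25 genes (24 HOX genes and MET), 239 kept direction and call, 17 lost and 6 gained the call, and 8 changed sign, none of which had passed the threshold. Scaling by library totals alone raised the median of all tested genes from 0.01 to 0.11, and with it 13 HOX genes were higher and 3 lower, 5 of paralog numbers 4 to 8 were higher, 1 HOXA gene was lower, and HOXB7 stood at 0.0674. With at least 10 counts in every library, which drops low genes, 1 HOX gene was lower (1 in HOXA, 0 in HOXC, 0 in HOXD, 1 in numbers 4 to 8, 0 in 9 to 13), 2 of numbers 1 to 3 were higher, the HOXA median was 1.10, HOXB7 was 0.0048, 3 gut genes were higher, and 1 retinoic acid gene was lower. DESeq2's Wald test called 2 HOXB genes and 3 chromatin regulators higher and 1 HOXA gene lower; without a filter 1 HOXA gene was lower. With a log2 fold change of 1 or more in size required, 7 HOX genes, 2 HOXB genes, 1 of numbers 4 to 8 and 2 of 9 to 13 were higher and 1 HOXA gene was lower; 10 flanking genes were higher and 3 lower, 1 TALE gene was higher and 0 lower, 2 gut and 5 retinoic acid genes were higher, and 0 chromatin regulators were higher and 2 lower. Members without overlap at the 3' end gave 2 lower HOX genes. Less the median of the chromosome, the HOXA median was 0.83 and the HOXC median 0.0905.

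With each replicate left out, 8 to 11 HOX genes were higher and 3 to 4 lower, 1 to 2 HOXA genes were lower, 2 to 5 HOXB genes were higher, 0 to 2 noncoding genes were lower, 3 to 4 chromatin regulators were higher, and the HOXB median was 0.27 to 0.56. The genes that changed sign ranged from -0.0106 to 0.30 (HOXB9), -0.19 to 0.74 (HOXC4), -0.50 to 0.13 (HOXC9) and -0.54 to 0.20 (HOXD8), and none was called. The cause was not tested.

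With the replicate number as a block, 11 HOX genes were higher and 3 lower, 1 HOXA gene was lower, and 7055 genes were called over all. The numbers pair no samples by the labels, and the deviations of same-numbered libraries had a correlation of -0.05 over 13801 genes. Depth limits the genes of low level: HOXB2, HOXC8 and HOXD13 rest on 29 to 100 counts in all.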
